A study of Mus musculus with 20 samples.

Results

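The genes of the cytosolic ribosomal proteins were followed in a mouse T cell line. They were taken by symbol, as the rows of the count files named Rpl or Rps with a number and at most one letter of a set (a, x, l or y), plus Rplp0, Rplp1, Rplp2 and Rpsa. This gave 81 of 24391 genes, 32 of the small (40S) subunit and 49 of the large (60S) subunit. The rule itself reads symbols only. Fau and Gnb2l1 (Rack1), which also encode ribosomal proteins, have other symbols and were counted apart.

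All 20 samples were of E2-10HA, a T cell hybridoma, which is a line made by fusing a T cell with a tumour cell. The H2A.Z guide samples (n = 6) carried lentiCRISPRv2 with guides that target H2afz and H2afv, which both encode the histone variant H2A.Z, and the CRISPR controls (n = 6) carried the empty vector, both under puromycin selection. The BioNICD samples carried the bacterial biotin ligase BirA and a biotin-tagged Notch intracellular domain (NICD, the part of the Notch receptor that acts in the nucleus), as the wild type (n = 2) or the DEP mutant (n = 2) of the labels, and were selected with histidinol and by sorting. The NICD-ER samples carried a Flag-tagged NICD joined to the binding domain of the estrogen receptor, were sorted, and received for 24 hours either 4-hydroxytamoxifen (4-OHT, n = 2) or its solvent ethanol (n = 2). The titles of all guide samples carry one and the same line number, so they are taken to come from 1 line. No label says that replicates were grown separately, and p-values therefore measure spread between samples that may be technical only. For 6 of the 8 CRISPR samples numbered 3 and above, title and description contradict each other on the group. The integrated plasmid goes with the title, and so did the targeted genes: H2afz stood at 4.55 to 5.70 CPM (counts scaled to library size) in guide samples, against 24.7 to 31.0 CPM in controls, and H2afv at 27.3 to 56.6 CPM in guide samples, against 116 to 149 CPM in controls.

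Each ribosome holds 1 copy of nearly every ribosomal protein, so cells make these proteins in step with each other and with ribosomal RNA. Their mRNAs are short and abundant. They start with a C followed by a run of pyrimidines, the 5′ TOP element, through which mTOR and Larp1 set their translation. Dividing T cells raise ribosome production, and Notch signalling supports growth and metabolism in developing and leukaemic T cells. Mammalian genomes also hold many processed copies (pseudogenes) of these genes, which matters for counting reads.

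Promoters of members named below are shown first, because the members are known to be transcribed together and the results turn on whether they moved together. RefSeq promoters (GRCm38.p6) were found for 60 of the 81 genes, and 80 bases before to 20 bases after the start are printed, 5′ to 3′. Capitals mark matches on either strand to 7 strings, none of which contains another: CCGGAAG (the core of sites for ETS factors such as GABP), AAGATGGC (YY1), GGGCGG (SP1), TATAA (TATA box), CACGTG (E-box), TGGGAA (the core of sites for RBPJ, the DNA-binding partner of NICD) and CTCTTTC, a pyrimidine string like a 5′ TOP.
Rps18 promoter, chr17:33955646-33955745, minus strand: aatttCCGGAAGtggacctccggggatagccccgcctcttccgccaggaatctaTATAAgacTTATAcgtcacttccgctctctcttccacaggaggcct
Rps25 promoter, chr9:44407634-44407733, plus strand: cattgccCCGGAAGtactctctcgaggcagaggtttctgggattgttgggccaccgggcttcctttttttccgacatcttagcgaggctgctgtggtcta
Rpl12 promoter, chr2:32961632-32961731, plus strand: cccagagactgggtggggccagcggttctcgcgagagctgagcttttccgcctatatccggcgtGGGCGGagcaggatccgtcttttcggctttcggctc
Rps26 promoter, chr10:128626487-128626586, minus strand: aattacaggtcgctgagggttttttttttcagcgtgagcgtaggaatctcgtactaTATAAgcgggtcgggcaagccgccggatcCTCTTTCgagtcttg
Rps21 promoter, chr2:180257299-180257398, plus strand: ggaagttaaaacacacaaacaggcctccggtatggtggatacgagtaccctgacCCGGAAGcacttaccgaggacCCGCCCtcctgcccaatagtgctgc
Rpl15 promoter, chr14:18270967-18271066, minus strand: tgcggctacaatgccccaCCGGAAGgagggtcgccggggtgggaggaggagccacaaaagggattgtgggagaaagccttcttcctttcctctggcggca
Over the 300-base windows that run from 250 before to 50 after the start, CCGGAAG stood in 24 of 60 members (40%), against 9.12% of all 27025 promoters. CTCTTTC stood in 26.7% of the members, against 8.01% of all, and GGGCGG in 58.3%, against 35.9%. The RBPJ core stood in 21.7% of the members, against 25.5% of all promoters, and TATAA in 26.7%, against 25.5%. The E-box stood in 8.33% of the members, against 7.24% of all, and AAGATGGC in 6.67%, against 2.88%. A match is a description of the sequence and not a site.

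The members' measured levels ran over more than 5 orders of magnitude, although their proteins are needed in equal numbers. Levels between genes are given as CPM per kilobase of exon (RPKM), averaged over the 6 groups. Rpl8, a protein near the peptidyl transferase centre, was highest at 2344 RPKM. It was followed by Rps15, a protein of the head of the 40S subunit, at 2155, by Rpl4, which lines the exit tunnel, at 1742, and by the stalk protein Rplp1 at 1458. The 5 genes with the most counts held 49.2% of all member counts. At the other end, 30 members stood between 1 and 10 RPKM and 6 below 1 RPKM. The lowest 5 were Rpl26 with 2 counts in all 20 samples together, Rps4l with 5, Rpl39l with 6, Rpl10l with 20 and Rpl3l with 131. Rpl39l and Rpl10l are paralogs used mainly in the testis and Rpl3l is used in muscle, but Rpl26 is a standard protein of every ribosome.

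The low levels went with shared sequence. For 80 members with a GENCODE vM21 transcript, the share of 50-base stretches found in no other annotated gene was taken. 76 of them shared at least one such stretch with a pseudogene, and 3 shared none with any gene. The 22 members with under 25% unique stretches had a median level of 6.91 RPKM (1.17 to 70.1), and the 22 members at 25% to 50% had 18.4 RPKM. The 23 members at 50% to 75% had 243 RPKM and the 13 members above 75% had 239 RPKM. Over the 80 genes Spearman's rho was 0.36, and over 77 genes without the tissue-restricted Rpl3l, Rpl10l and Rpl39l it was 0.52; this is a description across genes that share libraries. The count files also list other genes over the same exons for 11 members. These cover 95.8% of the exon bases of Rpl26 (Gm15772), 76.0% of Rpl30 (Gm12191), 60% of Rps27 (Rps27rt) and 59.9% of Rpl34 (Rpl34-ps1). The absolute level of a member with few unique stretches or with covered exons is therefore uncertain, and reads of its copies cannot be told from its own. Fold changes below compare the counts of 1 gene between samples. For such members these counts may lack reads of the gene itself, hold reads of the copies, or both.

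**Figure D1:**
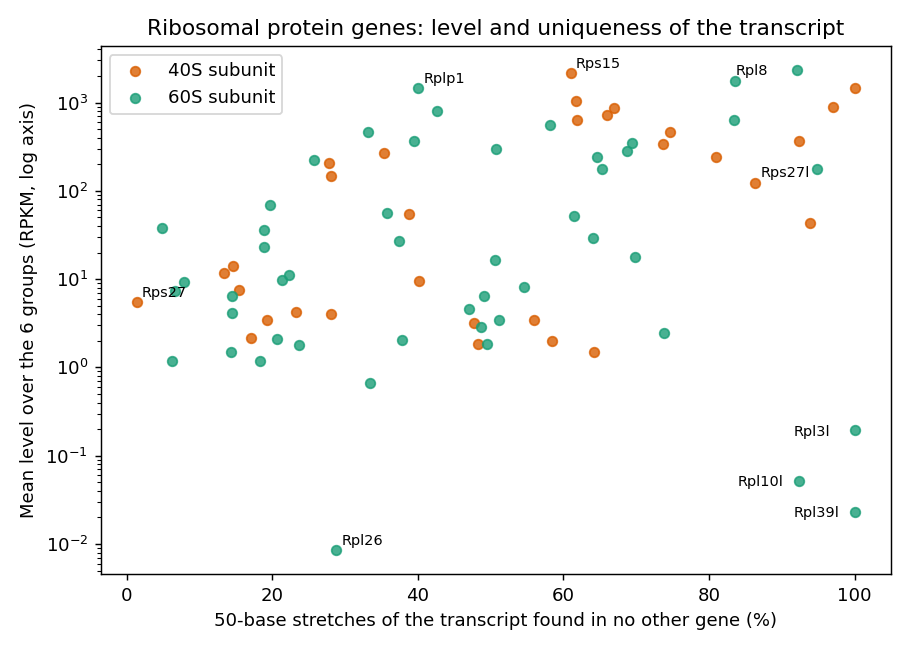
Each point is 1 of 80 ribosomal protein genes. The horizontal axis is the percentage of 50-base stretches of its transcript found in no other annotated gene, and the vertical axis is its mean level over the 6 groups in RPKM on a log axis. Members under 25% unique stay at or below 70.1 RPKM, and members above 50% reach 2344 RPKM, with Rpl3l, Rpl10l and Rpl39l at the lower right.

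Rps27 and its paralog Rps27l, a p53 target in mammals, show the contrast. Their coding sequences (GENCODE vM21), each 252 bases without the stop codon, are printed with the bases that differ in capitals.
Rps27 coding sequence: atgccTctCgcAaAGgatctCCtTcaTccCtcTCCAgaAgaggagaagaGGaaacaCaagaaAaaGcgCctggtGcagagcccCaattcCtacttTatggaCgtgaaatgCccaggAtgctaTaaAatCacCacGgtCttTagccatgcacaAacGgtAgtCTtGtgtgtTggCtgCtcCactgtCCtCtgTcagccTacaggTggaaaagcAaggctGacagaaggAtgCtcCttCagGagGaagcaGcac
Rps27l coding sequence: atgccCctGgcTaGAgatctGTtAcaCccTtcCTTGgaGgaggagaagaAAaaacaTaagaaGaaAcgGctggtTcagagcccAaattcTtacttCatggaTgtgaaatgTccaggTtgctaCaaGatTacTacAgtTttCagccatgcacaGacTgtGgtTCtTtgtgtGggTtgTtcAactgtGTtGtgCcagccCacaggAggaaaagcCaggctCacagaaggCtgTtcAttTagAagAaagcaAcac
They differ at 60 positions and are 76.2% identical, and the longest run that they share is 11 bases. No 50-base read can therefore match both without error. Rps27, of which 1.35% of stretches were unique, stood at 5.49 RPKM, and Rps27l, at 86.3%, stood at 124 RPKM. Rps27 lies at chr3:90016589-90017570 and Rps27l at chr9:66793925-66797316 in the files' build, mm9, which is used for all gene positions below.

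The summed level of the 81 genes was lower with wild-type BioNICD than with its DEP form and lower with 4-OHT than with ethanol, by more than the spread of the samples. It averaged 14731 ± 498 CPM in BioNICD wild type, against 19826 ± 51.7 CPM in DEP (SD, n = 2 each). In NICD-ER it averaged 13548 ± 374 CPM with 4-OHT, against 14900 ± 42.8 CPM with ethanol (SD, n = 2 each). With the H2A.Z guides it averaged 19850 ± 1306 CPM, against 19184 ± 1261 CPM in the CRISPR controls (SD, n = 6 each). The wild-type samples stood at 14379 and 15083 CPM, and the DEP samples at 19789 and 19862 CPM. The 4-OHT samples stood at 13283 and 13812 CPM, below both ethanol samples at 14931 and 14870 CPM, while the guide samples overlapped their controls. The lines differ in plasmid and selection, so levels between lines are a description. The 40S and 60S sums kept a ratio of 0.744 to 0.809 in all 20 samples, with the highest ratio in both BioNICD wild-type samples. Fewer cells expressing a gene and less RNA per cell cannot be told apart in these bulk samples.

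**Figure D2:**
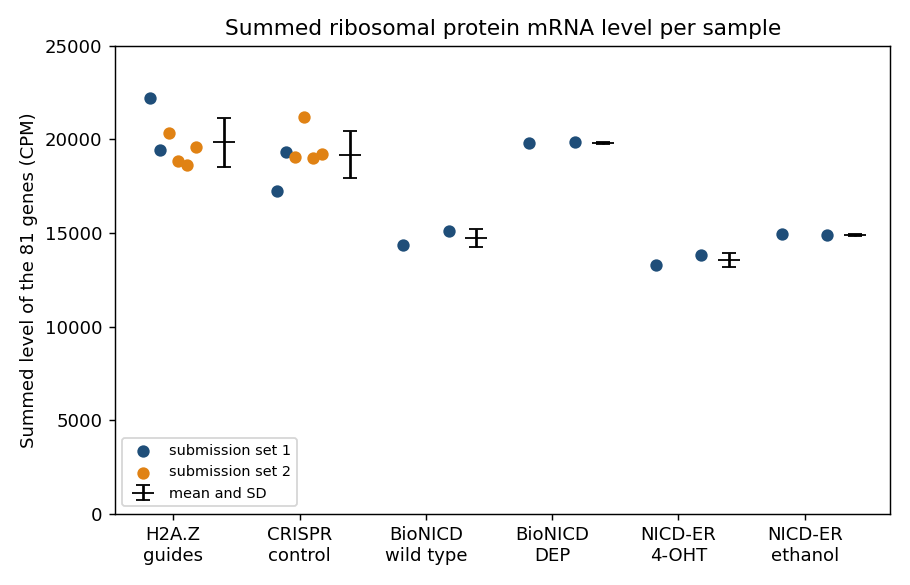
Points are the summed levels of the 81 ribosomal protein genes per sample in CPM, coloured by submission set, with the group mean and SD beside them. BioNICD wild type lies below BioNICD DEP, NICD-ER with 4-OHT lies below ethanol, and the H2A.Z guides overlap the CRISPR controls.

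With wild-type BioNICD, 58 of the ribosomal protein mRNAs were lower than with the DEP mutant and none was called higher. The 58 are 75.3% of the 77 members tested by edgeR. None was higher at an unadjusted p under 0.05 either, and DESeq2 called 51 lower and 0 higher. Over all 12499 genes tested, 33.6% were called lower and 65.6% in either direction. The members' median log2 fold change was -0.42, against -0.02 over all genes, and the summed level fell by 25.7%. Among the 39 members averaging over 20 CPM, 38 were lower. The exception was Rpl15, at 31.7 and 33.6 CPM in wild type and 28.8 and 31.5 CPM in DEP. The counts cover both subunits: 24 of 31 40S members and 34 of 46 60S members were lower, with medians of -0.42 and -0.44. Tests here are edgeR's quasi-likelihood test with Benjamini-Hochberg adjustment over all genes, and a gene is called at an adjusted p under 0.05.

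The most abundant members moved by similar amounts. Rpl4 had 2129 and 2170 CPM in BioNICD wild type, against 3038 and 3029 CPM in DEP (log2 fold change -0.52, SE 0.03, edgeR adjusted p = 1.24e-12). Rpl8 had 1553 and 1619 CPM in wild type, against 2185 and 2247 CPM in DEP, a log2 fold change of -0.50. Rps15 had 1042 and 1069 CPM in wild type, against 1477 and 1435 CPM in DEP, a log2 fold change of -0.48. In each of the 3, the wild-type samples were far below the DEP samples and the replicates lay close together. All 3 stalk proteins, which recruit translation factors to the ribosome, were lower. Rplp0, the base of the stalk, had 588 and 630 CPM in wild type, against 864 and 861 CPM in DEP (-0.52), Rplp1 fell by 0.47 and Rplp2 by 0.41 on the log2 scale.

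In 61 members both wild-type samples lay below both DEP samples (39.9% of all genes tested did). The 8 lowest fold changes called among these ran from -1.26 to -0.71 on the log2 scale. Rpl24, a large-subunit protein at the interface with the 40S subunit (chr16:55966388-55971550), had 0.40 and 0.54 CPM in wild type, against 1.06 and 1.08 CPM in DEP, and fell by 1.26 on the log2 scale (SE 0.39, edgeR adjusted p = 0.00702). Rpl12, at the base of the stalk (chr2:32817232-32819565), had 6.47 and 7.70 CPM in wild type, against 15.3 and 13.0 CPM in DEP (-1.04, SE 0.12, edgeR adjusted p = 5.34e-08). Rpl36 had 8.08 and 8.70 CPM in wild type, against 14.0 and 16.7 CPM in DEP (-0.91). These 3 had the lowest fold changes, with no overlap between the groups. Rpl13 had 20.7 and 22.9 CPM in wild type, against 35.8 and 39.6 CPM in DEP (-0.83). Rps25, a 40S protein that some viral RNAs need for initiation, had 37.3 and 32.3 CPM in wild type, against 49.2 and 71.1 CPM in DEP (-0.81). Rps25 is one of the members with covered exons (29.4% by Ccdc84), and its DEP samples lay far apart. Rps27a, made as a fusion with ubiquitin, fell by 0.75, Rpl9 by 0.74 and Rps18 by 0.71 on the log2 scale. Without wild-type replicate 1, Rpl24 and Rps27a were no longer called, and without DEP replicate 2 Rps27a was not.

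The split by unique sequence did not separate the medians. The 34 members with at least 50% unique stretches had a median log2 fold change of -0.43 and 31 were lower, and the 43 others had a median of -0.42 and 27 were lower. The 19 members not called included 16 that lay below 0 on the log2 scale with a mean of at most 3.86 CPM in wild type, from Rpl19 at -0.64 to Rps23 at -0.05. Rpl26, Rpl10l, Rpl39l and Rps4l had too few counts to be tested here and in the NICD-ER comparison.

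The lists of other translation genes had medians from -0.45 to -0.07. Over all genes tested, 33.6% were lower and 32% higher. Of 28 other genes with TOP mRNAs or TOP-like host transcripts (elongation factors, eIF3 subunits, Pabpc1, Npm1, Gas5 and others), 27 were lower and 0 higher, with a median of -0.45. The lowest were the host transcripts of small nucleolar RNAs, Snhg8 at 41.1 CPM in wild type, against 74.7 CPM in DEP (-0.90), and Snhg1 at 33.0 CPM in wild type, against 56.1 CPM in DEP (-0.79). Of 19 other initiation factors, 14 were lower and 1 higher (median -0.24), and of 13 chaperones and importers of ribosomal proteins, 9 were lower and 1 higher (median -0.26). The importer Ipo7 fell by 0.58 and Tsr2, which escorts Rps26, by 0.61 on the log2 scale. Of the 77 mitochondrial ribosomal proteins, which are encoded by separate genes and serve the other ribosome, 35 were lower and 13 higher, with a median of -0.07. Gnb2l1 was lower at 1908 CPM in wild type, against 2595 CPM in DEP (-0.46), and Fau fell by 0.30. The median of the 452 other genes over 20 CPM with under 1000 exon bases, a size like that of the members, was -0.13.

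Some features of the libraries moved with this comparison. Rn45s, the precursor of ribosomal RNA, took 1.92% and 1.84% of the counts in wild type and 2.31% and 2.20% in DEP, in RNA depleted of ribosomal RNA. Of the 4 myeloid markers measured, Itgam stood at 61.4 and 63.0 CPM in wild type and the other 3 together were below 1 CPM, and the whole list summed to 0.658 to 0.767 CPM in DEP. The T cell list of 10 genes summed to 1739 to 1775 CPM in wild type and 1269 to 1289 CPM in DEP, with 8 genes at 1 CPM or more in each. B cell markers were at most 0.482 CPM. The part of these in the result was not tested. In 1 model over all 20 samples, 43 members were lower, and Rps25 was no longer called.

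With 4-OHT in NICD-ER cells, 22 ribosomal protein mRNAs were lower and none was called higher. These were 28.6% of the 77 members tested by edgeR, against 17.2% of all genes called lower and 36.2% in either direction. None was higher at an unadjusted p under 0.05, and DESeq2 called 19 lower and 0 higher. The median was -0.14, against -0.00 over all genes, and the summed level fell by 9.08%. Among the 39 members over 20 CPM, 21 were lower. Among the 38 others, 1 was, Rpl10a. In 54 members both 4-OHT samples lay below both ethanol samples (33.4% of all genes did).

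Rpl10a, the protein of the L1 stalk (chr17:28465416-28467978), fell most among the members called, with 7.19 and 7.24 CPM with 4-OHT, against 9.03 and 10.2 CPM with ethanol (log2 fold change -0.41, SE 0.10, edgeR adjusted p = 0.00222). Rpl32 had 148 and 153 CPM with 4-OHT, against 187 and 163 CPM with ethanol (-0.21). In both genes, the 4-OHT samples lay below the ethanol samples. Rpl10a was not called without ethanol replicate 2, nor Rpl32 without ethanol replicate 1. Rpl22, whose loss in mice blocks the development of alpha-beta T cells, had 320 and 332 CPM with 4-OHT, against 373 and 382 CPM with ethanol (-0.21, SE 0.04, edgeR adjusted p = 0.000111). Rps26, near the mRNA exit channel, had 327 and 351 CPM with 4-OHT, against 390 and 378 CPM with ethanol (-0.18). For Rplp1 and Rps15 the log2 fold change was -0.17 each. Rplp0 fell by 0.12 and was not called without ethanol replicate 1 or either 4-OHT sample. Rplp2, at 130 and 127 CPM with 4-OHT and 135 and 136 CPM with ethanol, was not called. Without 4-OHT replicate 1, Rplp1 and Rps26 were not called either.

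The count was lower in some other fits and higher with a replicate block. In 1 model over all 20 samples, only Rpl10a was called of all 77 members, and without 4-OHT replicate 1 the count was 14. Of the 28 other TOP genes, 12 were lower and 0 higher (median -0.09), led by Vim, at 879 CPM with 4-OHT and 1208 CPM with ethanol (-0.46), and Eef2 (-0.26). Of the 77 mitochondrial ribosomal proteins, 9 were lower and 3 higher (median -0.03). Over all genes tested, 17.2% were lower and 19% higher. Rn45s took 3.63% and 3.87% of the counts with 4-OHT, against 3.0% and 4.53% with ethanol. The T cell list summed to 1603 to 1650 CPM with 4-OHT, against 1499 to 1538 CPM with ethanol. Of its 9 genes tested, 1 was called higher and 3 lower. The higher one was Lck, at 407 CPM with 4-OHT, against 154 CPM with ethanol. Lat (-0.49) and Zap70 (-0.22) were among the lower ones. The part of Rn45s and of these markers in the result was not tested.

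**Figure D3:**
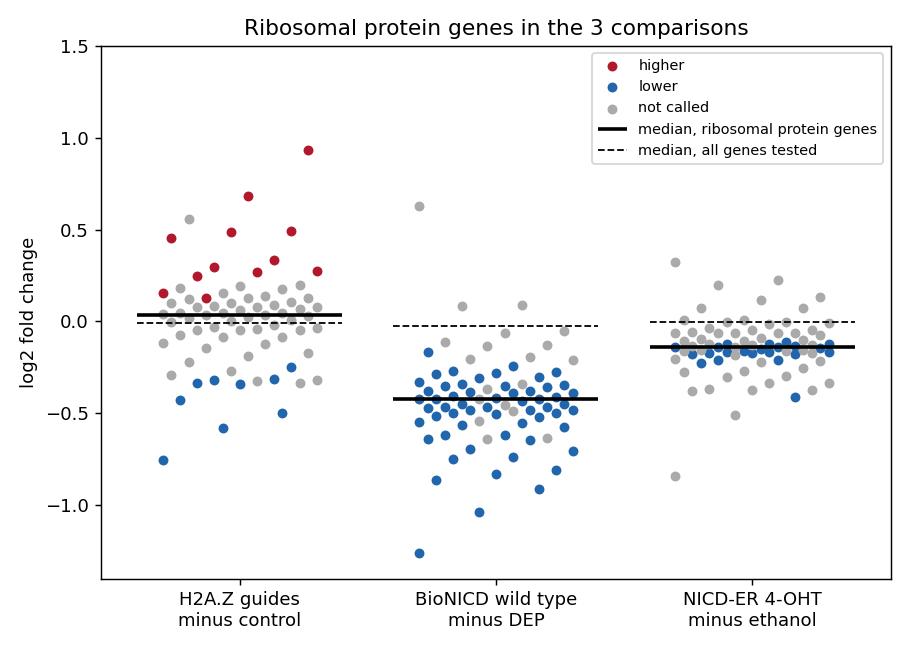
Each point is the log2 fold change of 1 ribosomal protein gene in 1 of the 3 comparisons, red where called higher, blue where called lower and grey where not called. The solid lines are the members' medians (0.04, -0.42 and -0.14 from left to right) and the dashed lines are the medians of all genes tested.

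The NICD-ER and BioNICD comparisons use different samples in 1 model. All 22 members lower with 4-OHT were also lower with wild-type BioNICD, which is 100% of the 22 and 37.9% of the 58. Of these 22, 21 averaged over 20 CPM, where 38 of 39 members were lower with wild-type BioNICD. That left little room for a smaller overlap, and the overlap over all genes was not counted. The difference between the effects was tested in the same model. In 41 of 77 members (26.4% of all genes, and 51.5% in either direction) the NICD-ER effect was higher, meaning less of a fall, or a rise. Rpl34, for one, averaged 2.15 CPM with 4-OHT and 1.72 CPM with ethanol. In 0 members the NICD-ER effect was lower by edgeR, also at an unadjusted p under 0.05. DESeq2 called 28 higher and 0 lower. The median difference was 0.29. The largest among the members called were Rpl34 (1.19, SE 0.38, edgeR adjusted p = 0.0128), Rpl12 (0.91), Rpl13 (0.90), Rpl36 (0.66) and Rps25 (0.65). For Rpl34, whose exons are covered to 59.9% by a pseudogene row, 1 sample set the value: it had 1.73 and 1.92 CPM in BioNICD wild type and 1.71 and 4.51 CPM in DEP. Without DEP replicate 2 or with DESeq2, neither Rpl34 nor Rps25 was called, and Rpl34 was not called without wild-type replicate 1. Rpl13 stood at 67.1 and 66.3 CPM with 4-OHT, against 67.4 and 59.95 CPM with ethanol, beside its fall in BioNICD. The 2 systems differ in plasmid, tag, selection and the form of control, so the size of a Notch effect cannot be told apart from these.

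With guides against H2A.Z, ribosomal protein mRNAs were called in both directions. Of 74 members tested, 12 were higher and 9 lower (28.4% called, against 64.5% of all 10662 genes, 31.8% higher and 32.7% lower). The median was 0.04, against -0.01 over all genes, and the summed level was 3.47% higher, less than the SD of either group. The 40S members had 6 higher and 2 lower of 30, and the 60S members 6 higher and 7 lower of 44. Rpl26, Rpl10l, Rps29, Rpl39l, Rpl3l, Rps4l and Rpl29 had too few counts to be tested.

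Markers moved with the guides as well. The T cell list summed to 1405 to 2165 CPM in guide samples, with 9 of 10 genes at 1 CPM or more, against 1182 to 1447 CPM in controls, with 8 of 10. Within the list, Cd4 averaged 108 CPM in guide samples, against 5.11 CPM in controls, and Cd247 averaged 19.1 CPM in guide samples, against 0.085 CPM in controls. Lck was lower at 63.1 CPM in guide samples, against 176 CPM in controls, and Cd28 at 14.8 CPM, against 37.6 CPM. Of the 9 genes of the list that were tested, 4 were called higher and 3 lower, beside 31.8% and 32.7% of all genes. The list of 4 fibroblast markers summed to 30.7 CPM in guide replicate 1 and 26.9 CPM in control replicate 1, and to at most 0.284 CPM in the other CRISPR samples. Without these 2 libraries, a fit chosen after seeing the data, 10 members were higher and 12 lower and the median was -0.025. The part of the T cell markers was not tested.

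Only 2 members were higher and 3 lower with no overlap between the groups (17.1% and 16.5% of all genes). Rps21, a 40S protein (chr2:179992084-179993149), ran from 183 over 205 to 224 CPM with the guides, and from 136 over 148 to 168 CPM in the controls (0.46, SE 0.05, edgeR adjusted p = 6.36e-07). Every guide sample of Rps21 was above every control. Rpl15, a core protein of the large subunit that is mutated in some Diamond-Blackfan anaemia (chr14:19100337-19103500), ran from 14.3 over 29.2 to 32 CPM with the guides, and from 36.4 over 39.8 to 43.5 CPM in the controls (-0.58, SE 0.11, edgeR adjusted p = 0.000178). Rpl5, which carries the 5S RNA into the ribosome and binds Mdm2 (chr5:108329547-108338024), ran from 1.34 over 1.65 to 1.88 CPM with the guides, and from 1.88 over 2.90 to 3.58 CPM in the controls (-0.76). Rpl21 (chr5:147644466-147648608) ran from 3.51 over 4.03 to 4.63 CPM with the guides, and from 4.79 over 5.85 to 6.32 CPM in the controls (-0.50). All guide samples of these 3 genes lay below all controls, for Rpl5 by a narrow margin. Rpl5 and Rpl21 had few counts, and 47.7% of the exon bases of Rpl5 are covered by Fam69a.

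The calls were uneven over the chromosomes. All 5 tested members on chromosome 5 were lower (Rpl5, Rpl21, Rpl9 at -0.43, Rpl6 at -0.33 and Rplp0 at -0.25), and the 677 other genes tested there had a median of -0.33. Rpl13 lies on chromosome 8, where the 570 other genes had a median of 0.51. Rpl13 ran from 46.9 over 95.8 to 104 CPM with the guides, and from 37.2 over 48.5 to 58.4 CPM in the controls (0.93, SE 0.12, edgeR adjusted p = 4.39e-06), with guide replicate 1 inside the range of the controls. Without these 2 chromosomes, 10 members were higher and 4 lower of 67 (14.9% and 5.97%). Over all genes tested on all chromosomes, 31.8% were higher and 32.7% lower. The shares of other genes called on single chromosomes were not counted. On chromosome 17, 4 of 6 members were higher (Rps2 at 0.49, Rpl10a at 0.49, Rps18 at 0.34 and Rps10 at 0.13), and the 567 other genes there had a median of 0.10. These chromosomes, and the members on them other than Rpl5, Rpl21 and the stalk genes, were picked after their values were seen. The part of the chromosome-wide shifts in these calls was not tested. With set 1 (replicates 1 and 2) fitted by itself, neither Rpl21 nor Rpl5 was called.

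**Figure D4:**
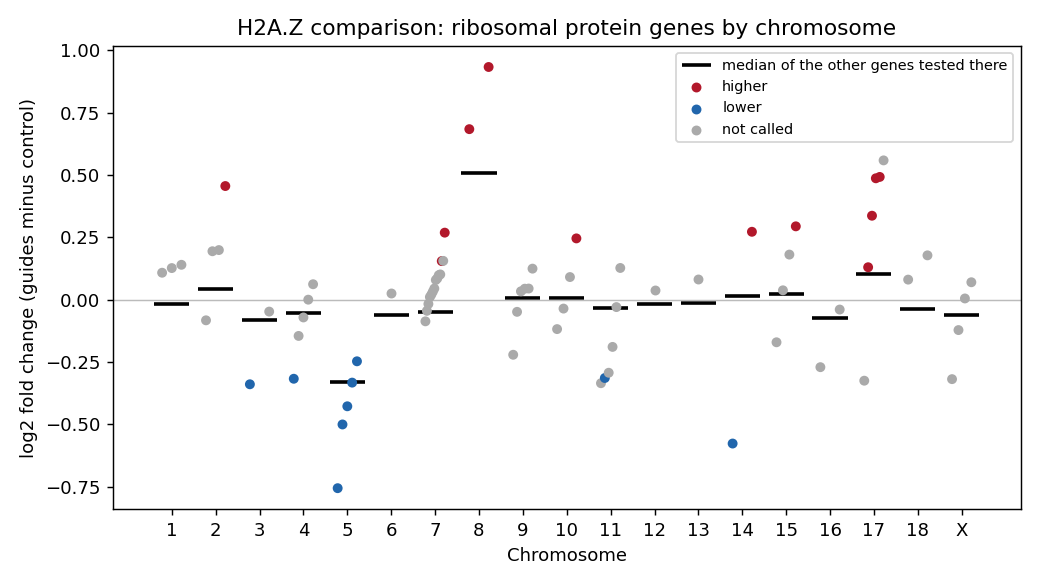
Points are the log2 fold changes of the 74 ribosomal protein genes tested, guides minus control, by chromosome, red where called higher, blue where called lower and grey where not called. Bars are the medians of the other genes tested on each chromosome. Members on chromosome 5 lie around the bar at -0.33, and the bar of chromosome 8 is at 0.51.

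Of the stalk genes, 1 was called with the guides. Rplp0 was lower (edgeR adjusted p = 0.00387), running from 694 over 754 to 1017 CPM with the guides and from 882 over 913 to 983 CPM in the controls. The highest value was that of guide replicate 1, so the groups overlapped, and Rplp0 was not called in set 1 fitted by itself or without the 3 samples highest in Rn45s. Rplp1 was not called at 0.12 and Rplp2 was not called at -0.02, a value that changed sign under other settings. The 76 mitochondrial ribosomal proteins tested had 44 lower and 4 higher (median -0.19), and the other genes over 20 CPM with under 1000 exon bases had a median of -0.18. Of the other TOP genes, 9 of 28 were higher and 4 lower (median 0.04), Vim highest at 1483 CPM in guide samples, against 971 CPM in controls (0.68). Over all genes tested, 31.8% were higher and 32.7% lower. Outside the rule, Fau was lower at 11.6 CPM in guide samples, against 18.3 CPM in controls (-0.67), and Rpl7l1, a gene related to Rpl7, was higher at 124 CPM in guide samples, against 84.7 CPM in controls (0.54). Heatr3, which assists the import of Rpl5 and lies on chromosome 8, was higher at 113 CPM in guide samples, against 52.2 CPM in controls (1.09).

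The H2A.Z effect differed between the submission sets in 10 members. Set 1 holds replicates 1 and 2 of each group, whose labels include a treatment entry, and set 2 holds replicates 3 to 6, whose labels lack one. The summed level averaged 20844 CPM in guide samples and 18281 CPM in controls of set 1, and 19353 CPM in guide samples and 19636 CPM in controls of set 2. Within set 1, 27 members were higher and 4 lower (median 0.25, beside 26.3% higher, 26.1% lower and 52.4% in all among all genes). These counts take their spread from all 12 samples, and set 1 fitted by itself gave 7 higher and 1 lower. Within set 2, 7 were higher and 11 lower (median -0.04, beside 31.8% higher, 32.6% lower and 64.4% in all among all genes). The difference between the sets, tested in the same model, was called in 10 members, all lower in set 2 (7.49% of all genes were lower, 8.19% higher and 15.7% either), with a median of -0.29. Among the members called, Rpl36 had the largest at -0.92, followed by Rps18 at -0.71, Rpl9 at -0.66, Rps14 at -0.56 and Rpl22 at -0.49.

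Set 1 rests on 2 samples a group, which lay far apart. The guide samples of set 1 stood at 22226 and 19462 CPM in sum, and its controls at 17245 and 19317 CPM. Without replicate 1 of both groups, which leaves 1 sample a group in set 1, assumed to vary like set 2, the difference between sets was called in 1 higher and 8 lower members, and of the 5 largest only Rps14 was still called. Without control replicate 1 alone it was called in 2 members, without guide replicate 2 in 9 higher and 32 lower, and without either guide replicate 5 or control replicate 4 in 6. Without the 3 samples highest in Rn45s (6.73% to 7.67% of the counts, all in set 2) it was called in 0 members by edgeR, with 15 lower at an unadjusted p under 0.05. Guide replicate 1 also stood apart in single members, chosen after their values were seen. Rpl39, a small protein of the exit tunnel, had 73.4 CPM there and 250 to 340 CPM in the other guide samples, and Rps27l had 40.5 CPM there and 69.4 to 81.1 CPM in the others. Rps25 had 14.2 CPM in control replicate 1 and 35.2 to 54.6 CPM in the other controls.

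**Figure D5:**
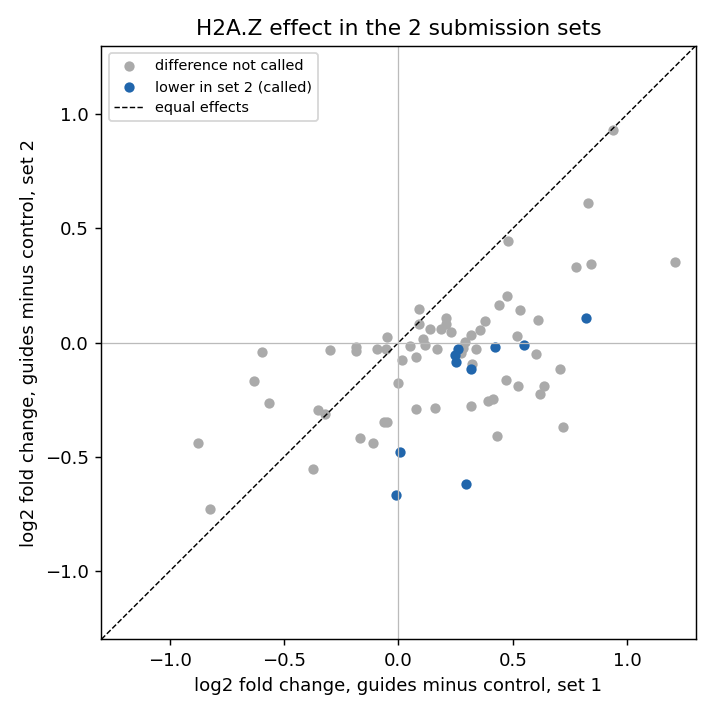
Each point is 1 of the 74 ribosomal protein genes tested, with its log2 fold change (guides minus control) in submission set 1 on the horizontal axis and in set 2 on the vertical axis. Blue points are the 10 members whose effect was called lower in set 2, and most points lie below the dashed line of equal effects.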

How the data were processed

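Stranded libraries were made from total RNA after removal of ribosomal RNA, per the labels' protocols. The tools named in the submitters' processing notes are STAR, Trimmomatic, FastQC, DESeq2 and featureCounts, with the build mm9. The deposited values are raw exon counts, made by the authors with featureCounts 1.5.0 per the file headers, for 24391 genes; the recorded command sets no strand or multi-mapping option. How reads with several matches were aligned is not given in the sources used here. Totals ran from 10704131 to 48238324 counts per sample.

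Counts were tested with edgeR 4.0.16 (R 4.3.3): TMM scaling, filterByExpr, quasi-likelihood test, Benjamini-Hochberg adjustment over all genes tested, threshold 0.05. The H2A.Z model fitted guides against control over the 12 CRISPR samples, with submission set as covariate; the NICD model used 8 samples with a coefficient per group. The biological coefficient of variation was 7.95% and 3.58%. An SE is the absolute log2 fold change over the square root of F. CPM are TMM-scaled over 20 samples; RPKM is CPM per kilobase of exon. The fits were tested on simulated counts with 1 spread for all genes. At a log2 change of 0.4, 83% of changed genes were recovered in the H2A.Z comparison, 83% in NICD-ER and 77% in BioNICD. For the difference between the NICD effects it was 60%. Smaller changes, such as the members' median of -0.14 in NICD-ER, were not simulated.

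Genes named per comparison are the 8 highest and 8 lowest called members without overlap between groups, the stalk genes, members under the filter, and the 5 highest and lowest in level; the 5 largest differences of effects; and for other lists up to 2 at each end; some genes that this rule names are not reported here. Others are said to be chosen after their values were seen, among them Rpl4, Rpl8, Rps15 and Rpl15 in the BioNICD comparison. Members and lists were chosen with earlier results of these data known. Alternatives were other scalings, no filter, DESeq2 1.42.0, leaving out samples, sets alone, leaving out 2 libraries with fibroblast markers, 1 model over all samples and a replicate block. Transcripts are from GENCODE vM21 and promoters from RefSeq; their coordinates were not mixed with mm9.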

Additional observations from a re-analysis of the deposited data

Results flagged for a closer look

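Rplp0 stood at 1017 CPM in H2A.Z guide replicate 1, far above the other guide samples by Dixon's criterion. It was 1 of 19 sets of values tested in groups of 6, and chance alone flags about 1 in 20.

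The effects in NICD-ER and BioNICD differed in 41 of 77 members, all with the NICD-ER effect higher. This is 53.2% of the members, against 51.5% of all genes in either direction and 26.4% higher. The largest were Rpl34 (1.19), Rpl12 (0.91), Rpl13 (0.90), Rpl36 (0.66) and Rps25 (0.65) on the log2 scale. The H2A.Z effect differed between submission sets in 10 of 74 members, all lower in set 2. This is 13.5% of the members, against 15.7% of all genes in either direction and 7.49% lower. The largest were Rpl36 (-0.92), Rps18 (-0.71), Rpl9 (-0.66), Rps14 (-0.56) and Rpl22 (-0.49).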

How the results depend on the processing

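Of 212 values of the summaries under other settings, 183 stayed within their limits, and of 584 values of single members 496 kept direction and call. For the H2A.Z guides, 7 members were higher with no submission set in the model; set 1 alone gave 7 higher, 1 lower and a median of 0.25; without the 3 samples highest in Rn45s there were 4 lower and a median of 0.13. Leaving out 1 sample gave 8 to 15 higher, 7 to 11 lower and medians of 0.00067 to 0.08. Rplp2 reversed to 0.0028 with no filter, 0.078 in set 1 and 0.033 without the Rn45s-high samples; leaving out 1 sample gave -0.042 to 0.015, above 0 without guide replicate 5 or control replicate 4. For NICD-ER the median was -0.17 with upper quartile scaling, 1 member was lower in the model over all 20 samples, and leaving out 1 sample gave 14 to 21 lower and medians of -0.14 to -0.13. For BioNICD the median was -0.46 with upper quartile scaling and -0.47 to -0.39 leaving out 1 sample, with 47 to 58 lower. The difference between NICD effects was called in 28 to 42 members leaving out 1 sample, and in 28 with DESeq2. The difference between sets was called higher in 1 member with DESeq2 and in 1 without both libraries with fibroblast markers (chosen after seeing the data), and lower in 0 without the Rn45s-high samples; leaving out 1 sample gave 0 to 9 higher and 2 to 32 lower. Scaled by total counts, the summed levels were 20451 (BioNICD DEP), 14224 (4-OHT) and 15762 CPM (ethanol); by totals without Rn45s and Lars2, 15520 (BioNICD wild type), 20925 (DEP), 14820 (4-OHT) and 16404 CPM (ethanol). The causes were not tested. Same-numbered samples correlated at -0.019 to 0.38 in their deviations. The 0.38 was that of guides and controls of set 1, where differently numbered samples correlated at -0.38. With 2 samples a group the deviations mirror each other, so only the sign could tell of a pairing. In set 2 the same-numbered samples correlated at -0.0097 to 0.064. With a replicate block, 8 members were higher and 7 lower with the guides, 26 lower with 4-OHT and 58 lower in BioNICD. Rpl26, Rpl10l, Rpl39l and Rps4l had too few counts for any test.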

Other observations

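Of 10 measured ribosomal protein genes that are mutated in Diamond-Blackfan anaemia, 6 were lower and 0 higher by edgeR with wild-type BioNICD (median log2 fold change -0.41). Of all 77 members tested, 75.3% were lower there, with a median of -0.42, and of all genes 33.6% were lower. With 4-OHT 2 of the 10 were lower (28.6% of the members, 17.2% of all genes). With the H2A.Z guides 2 were higher (16.2% of the members, 31.8% of all genes) and 2 lower (12.2% and 32.7%). Of 6 ribosomal proteins that bind Mdm2, 5 were lower with wild-type BioNICD (median -0.42), 2 with 4-OHT (median -0.14) and 1 with the guides (median 0.07). These 6 are members too, so the shares above also stand beside them. Of 16 regulators of TOP mRNA translation, such as Larp1 and Mtor, 8 were lower and 2 higher with wild-type BioNICD (median -0.15). Of all genes, 33.6% were lower and 32% higher there. With 4-OHT 5 regulators were lower and 2 higher, beside 17.2% and 19% of all genes. With the guides 4 were lower and 5 higher, beside 32.7% and 31.8% of all genes.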
